A study of Homo sapiens with 20 samples.

Results

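The genes examined here lie next to each other on the long arm of human chromosome 18, in band 18q21, from IER3IP1 to PMAIP1, with SMAD4 in their midst. The list held 49 genes. Of these, 47 were measured by an array cluster that carried exactly 1 gene symbol, among 17709 such clusters, and CTIF and RPL17 were not. The region was picked because its genes were lower together in prexasertib-resistant NCI-H520 cells, so the NCI-H520 contrast chose the members and its values are given as a description, without a test. The contrasts in SJCRH30 and Rh41 played no part in that choice and were tested.

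Prexasertib inhibits CHK1, the checkpoint kinase that restrains origin firing and mitotic entry when replication is stressed. Total RNA was measured on 20 arrays in 6 groups. NCI-H520, a squamous cell lung carcinoma line, and SJCRH30, an alveolar rhabdomyosarcoma line, had 3 arrays per state, parental or resistant. Rh41, also an alveolar rhabdomyosarcoma line, had 3 parental and 5 resistant ones. NCI-H520 cells became resistant in culture under rising drug concentrations, and Rh41 was treated in a similar way in 5 independent cultures that all became resistant. The SJCRH30 lines were grown out of xenograft tumors of an athymic mouse model, the parental one from a vehicle-treated, sensitive tumor and the resistant one from a tumor that regrew after dosing had stopped and was not inhibited by further dosing, and were sub-cultured with drug. The labels nevertheless give long-term concentration escalation as the treatment of all resistant lines. The sources used here leave out whether drug was present at RNA extraction, so direct drug effects and resistance cannot be told apart. Arrays of a group are called biological replicates in the labels. In NCI-H520 and SJCRH30, with 1 resistant line each, they vary as repeat cultures do and carry no spread between independent selections. The 5 resistant Rh41 arrays match the number of selected cultures, although the labels do not tie an array to a culture.

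Arrays of the same group correlated at 0.983 to 0.994 over all tested clusters and parental with resistant arrays at 0.962 to 0.975, and no array stood apart. The deposited Rh41 values had an SD of 1.99 against 2.99 in the other lines, so changes in Rh41 can be set beside the others in direction only. Myogenic markers had means of 5 or more for 5 of 7 genes in SJCRH30 and for 6 of 7 in Rh41. In parental and resistant NCI-H520 cells 2 and 3 of the 7 had such means, the highest being MYOG at 5.20 and 5.39. Of 5 squamous markers, 1 had a mean of 5 or more in NCI-H520, SOX2, while KRT5, KRT14, DSG3 and PKP1 lay under 5. In Rh41, 4 of these 5 squamous markers had means of 5 or more. Of 4 leukocyte markers only LAPTM5 rose with resistance, from 7.14 to 14.06 in SJCRH30 and from 5.68 to 8.54 in Rh41, while PTPRC stayed under 5 in every group. The summed log2 level of the 4 leukocyte markers ranged from 20.8 to 22.6 in parental and from 28.7 to 29.6 in resistant SJCRH30 arrays, and its part in the results below was not tested. In bulk RNA, fewer cells that express a gene and less RNA per cell cannot be told apart. DNA copy number was not analysed here.

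Chromosome band 18q21 is known for the loss of genetic material in pancreatic, colorectal and squamous cancers. SMAD4 is the common partner of the receptor-activated SMAD proteins: TGF-beta and activin receptors phosphorylate SMAD2, which then enters the nucleus with SMAD4, whereas SMAD7 is induced by the pathway and inhibits the receptors. Genes that lie side by side often have unrelated functions, and the interval also holds mitochondrial, chromatin, secretory, mitotic and cell death genes.

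The region as a whole was much lower in resistant NCI-H520 cells, slightly lower in resistant SJCRH30 cells and not lower in resistant Rh41 cells. A gene was called when its limma adjusted p, over all 17709 clusters, was under 0.05 and its change exceeded 1.5-fold. In NCI-H520, 27 of 47 members were lower and 2 were higher past both thresholds, where 9.9% and 10.1% of all clusters were, and nothing is read from this contrast because it chose the members. The median log2 change of the 47 members was -1.13, beside 0.01 over all clusters. In SJCRH30, 10 members fell and 3 rose, where 9.28% and 9.42% of all clusters did (18.7% in either direction), and the median change was -0.20 beside 0.01. Shifts of this size were not particular to these genes in SJCRH30. Chromosome 5 had a median of -0.25 there with 24.7% of its genes lower, and chromosome 8 a median of 0.20 with 19.5% higher. In Rh41, no member fell and 7 rose, where 3.08% and 5.69% of all clusters did (8.78% in either direction), and the median change was 0.01 beside -0.03. With the adjusted p alone, 2 members were lower in Rh41 (SMAD2 and TCF4) and 11 were higher.

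**Figure D1:**
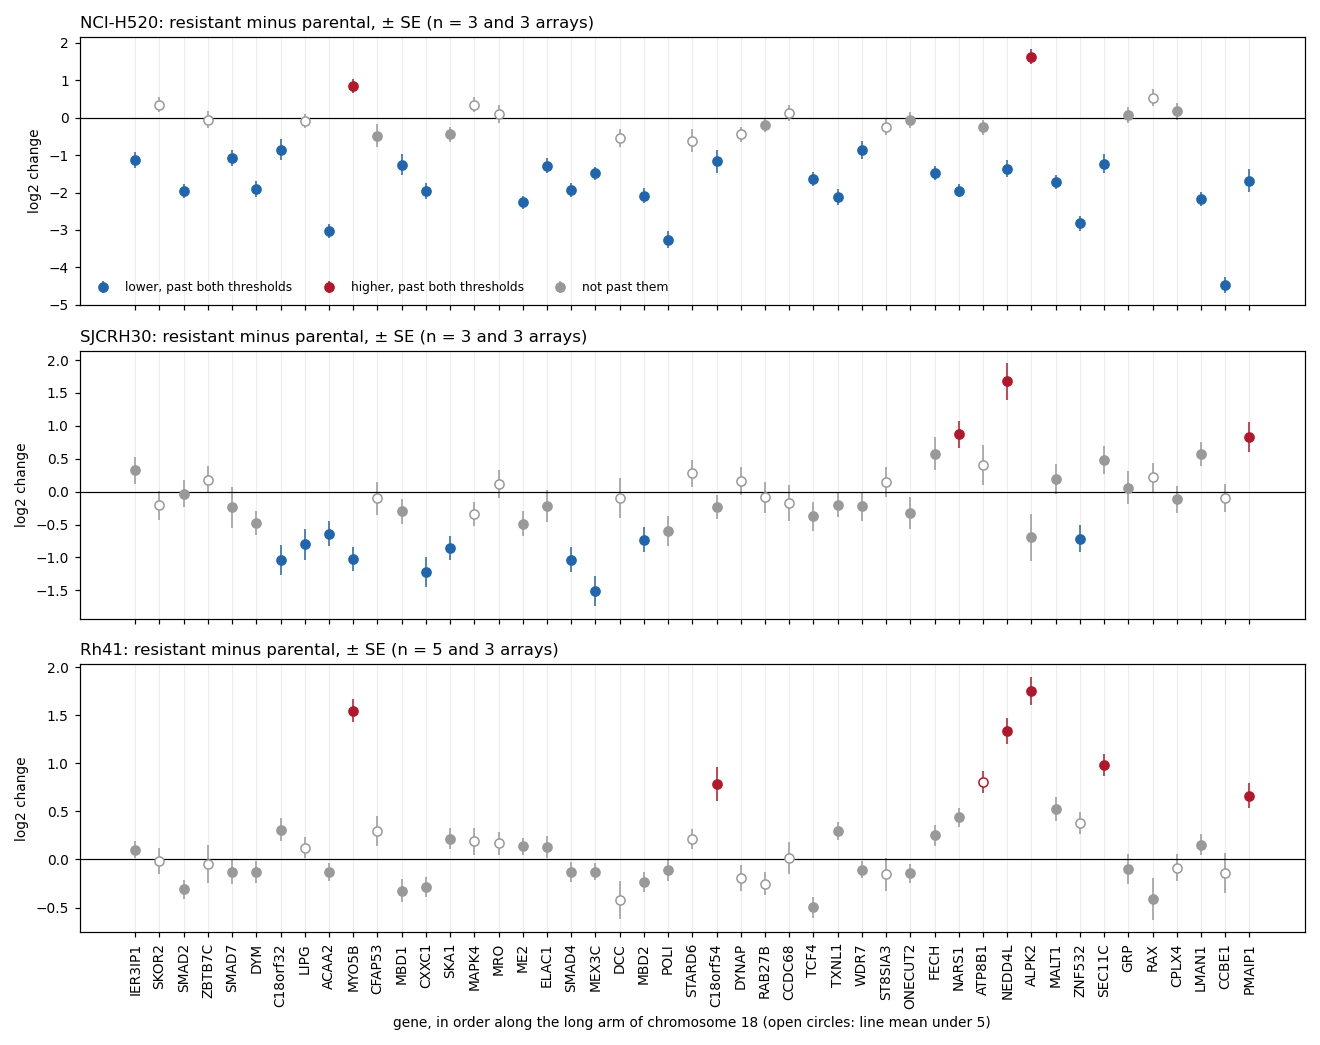
Log2 change (resistant minus parental, ± SE) of the 47 measured genes in their order along 18q, for NCI-H520, SJCRH30 and Rh41 (filled color: past both thresholds; open circles: mean over the arrays of the line under 5). In NCI-H520 27 genes lie below 0 past both thresholds, in SJCRH30 an unbroken row from SMAD2 to ONECUT2 lies below 0 once open circles are set aside, and in Rh41 the called genes all lie above 0.

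In NCI-H520 and SJCRH30 the shift was seen on each resistant array, and in Rh41 it was not. Relative to the parental mean of each gene, the median over the 47 members was -1.20, -0.96 and -1.01 on the resistant NCI-H520 arrays and between -0.05 and 0.01 on the parental ones. On the resistant SJCRH30 arrays it was -0.16, -0.18 and -0.22, against -0.06 to 0.01 on the parental arrays. On the 5 resistant Rh41 arrays it ran from -0.033 to 0.13, against -0.018 to -0.0082 on the parental arrays, and the lowest resistant value lay below all parental ones. Subtracting the parental mean holds the parental medians near 0, so resistant arrays cannot be judged against the parental ranges.

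The order of the genes showed more than the medians did. The 14 members with a mean under 5 in SJCRH30 had a median change of 0.01 and were passed over here, also where they lay between the others. Among the 33 members with a mean of 5 or more in SJCRH30, 21 consecutive ones, from SMAD2 to ONECUT2, all had a negative change, from -0.03 to -1.51 with a median of -0.49, and for 14 of the 21 all resistant arrays lay below all parental arrays. Over all 47 members this was so for 16, where 16.8% of all clusters were below in this way, and 4 lay wholly above, where 17.4% did. The next 3 members with such a mean, FECH, NARS1 and NEDD4L, were all positive, as were LMAN1 and PMAIP1 at the end. In NCI-H520, the 36 members with a mean of 5 or more held 6 consecutive negative changes from IER3IP1 to ACAA2 and 20 from CFAP53 to NEDD4L, with MYO5B alone between them. The longest stretch of one sign in Rh41 was 6 positive members, from FECH to SEC11C, among 31, and all 6 had every resistant array above every parental array. Over all 47 members in Rh41, 11 lay wholly above and 6 wholly below, where 13.6% and 12.6% of all clusters did. These stretches were chosen after their values were seen and carry no test.

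SMAD4 fell in resistant SJCRH30 cells and was not called in Rh41, and it was lower in NCI-H520, the line that chose the region. The promoters of the SMAD genes are shown because the genes stand for the region and lie on either strand in CpG-rich sequence. They are given as the 250 bases before the RefSeq gene start, on the GRCh38.p14 build, 5′ to 3′ on the strand of the gene, with each CpG in capitals.
SMAD2 (chr18:47930873-47931122, minus strand): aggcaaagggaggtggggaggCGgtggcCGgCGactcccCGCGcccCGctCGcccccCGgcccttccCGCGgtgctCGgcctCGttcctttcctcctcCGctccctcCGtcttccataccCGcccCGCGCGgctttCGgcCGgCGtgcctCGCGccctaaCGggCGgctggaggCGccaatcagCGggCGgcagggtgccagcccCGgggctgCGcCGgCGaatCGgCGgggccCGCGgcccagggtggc
SMAD7 (chr18:48950966-48951215, minus strand): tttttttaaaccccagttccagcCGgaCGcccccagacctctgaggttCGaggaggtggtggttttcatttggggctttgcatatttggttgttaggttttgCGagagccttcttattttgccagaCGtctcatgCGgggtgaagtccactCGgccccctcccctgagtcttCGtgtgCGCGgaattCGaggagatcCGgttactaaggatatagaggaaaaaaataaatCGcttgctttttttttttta
SMAD4 (chr18:51029963-51030212, plus strand): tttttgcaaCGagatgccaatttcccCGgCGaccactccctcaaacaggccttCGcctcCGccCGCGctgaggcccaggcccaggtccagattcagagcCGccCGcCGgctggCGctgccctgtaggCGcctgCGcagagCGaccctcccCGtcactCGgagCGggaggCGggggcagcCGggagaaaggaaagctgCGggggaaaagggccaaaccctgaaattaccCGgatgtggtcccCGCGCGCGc
ZNF532, a zinc finger gene of the same interval, is added as a CpG-poor example.
ZNF532 (chr18:58862674-58862923, plus strand): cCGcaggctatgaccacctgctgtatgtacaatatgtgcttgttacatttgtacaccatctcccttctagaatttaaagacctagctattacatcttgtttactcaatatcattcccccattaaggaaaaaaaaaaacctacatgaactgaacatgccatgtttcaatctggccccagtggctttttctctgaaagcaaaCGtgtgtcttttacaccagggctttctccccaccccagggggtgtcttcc
These stretches held 36, 13, 25 and 2 CpG dinucleotides in SMAD2, SMAD7, SMAD4 and ZNF532. Promoters of 300 bases, from 250 before to 50 after the gene start, were matched by symbol for 45 of the 49 listed genes. Their ratio of observed to expected CpG was at least 0.6 in 37 of the 45, against 66.9% of 14250 genes of the array with such a sequence. The ratio was at least 0.6 in 26 of the 28 matched members that had a mean of 5 or more in all 3 lines, and in 6 of the 9 that were under 5 in all. The palindrome GTCTAGAC, a SMAD-binding element, was searched on both strands and was in none of the 45 (0.154% of the array genes). CAGAC, a shorter SMAD-binding sequence that the palindrome does not contain, was in 18 (44% of the array genes). GGCGCC, a GC-rich SMAD-binding sequence, was in 17 (25.8%). A match is a description of letters and not a site in use.

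SMAD4 read 12.02, 12.28 and 12.15 on the parental NCI-H520 arrays and 10.17, 10.09 and 10.39 on the resistant ones. In SJCRH30 the arrays read 12.11, 11.81 and 12.20 in parental and 11.13, 11.01 and 10.88 in resistant cells. The groups did not overlap in either line. The change was -1.94 ± 0.19 (SE) in NCI-H520 and -1.03 ± 0.19 in SJCRH30 (limma adjusted p = 0.0023). In Rh41 the parental arrays read 8.89, 8.59 and 8.71 and the resistant ones 8.43, 8.65, 8.58, 8.61 and 8.70, which overlap, with a change of -0.13 ± 0.10 (adjusted p = 0.42).

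SMAD2, the receptor-activated partner of SMAD4, did not follow it in SJCRH30. Its NCI-H520 arrays read 10.97, 10.90 and 10.84 in parental and 8.69, 9.11 and 9.05 in resistant cells, a change of -1.96 ± 0.19. In SJCRH30 they read 10.66, 10.66 and 10.29 against 10.64, 10.64 and 10.24, which are nearly the same, with a change of -0.03 ± 0.20 (limma adjusted p = 0.938). In Rh41 the parental arrays read 8.65, 8.63 and 8.62 and the resistant arrays 8.46, 8.39, 8.38, 8.25 and 8.14. All 5 resistant values were lower, but the change of -0.31 ± 0.10 (adjusted p = 0.0478) was under the 1.5-fold threshold.

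SMAD7, the inhibitory SMAD, was lower by 1.09 ± 0.21 in NCI-H520, where parental arrays read 8.20, 7.79 and 8.44 and resistant arrays 7.19, 7.04 and 6.94. In SJCRH30 the values scattered, at 7.20, 6.49 and 6.45 in parental and 6.14, 7.26 and 6.03 in resistant cells, with a change of -0.24 ± 0.31 (limma adjusted p = 0.669). In Rh41 the parental range of 6.27 to 6.72 enclosed all but 1 of the resistant values, which ran from 6.16 to 6.45 (-0.13 ± 0.12, adjusted p = 0.499). SKOR2, a corepressor of the SKI family, had means under 5 in every group, and its changes were 0.35, -0.21 and -0.02 in NCI-H520, SJCRH30 and Rh41.

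**Figure D2:**
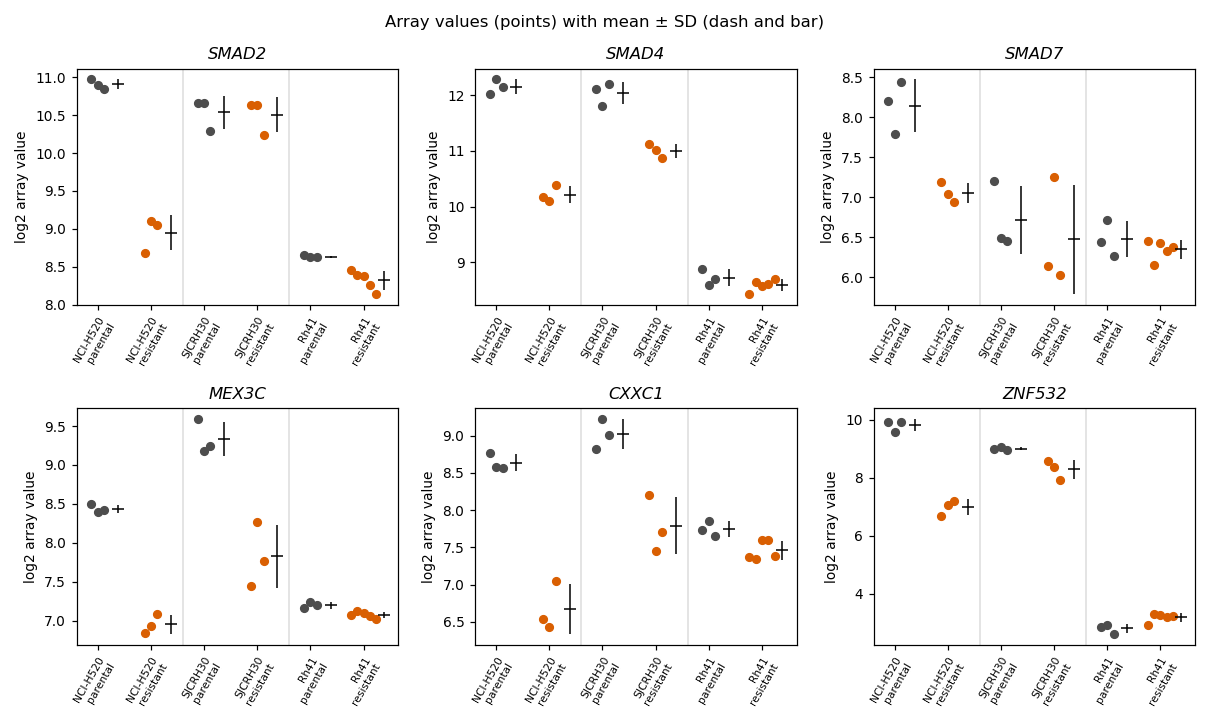
Log2 array values of SMAD2, SMAD4, SMAD7, MEX3C, CXXC1 and ZNF532 in the 6 groups (points: arrays, gray for parental and orange for resistant; dash and bar: mean ± SD). Parental and resistant arrays are separate for all the genes shown in NCI-H520 and for SMAD4, MEX3C, CXXC1 and ZNF532 in SJCRH30. In Rh41 they are separate, by small steps, for SMAD2, MEX3C and CXXC1.

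Of the 8 measured chromatin and transcription genes, 5 were lower past the thresholds in NCI-H520, 3 fell in SJCRH30 and none was called in Rh41, where 9.9%, 9.28% and 3.08% of all clusters were lower. In NCI-H520, which chose the region, 57.4% of all 47 members were lower, so its count is a description. CXXC1, which binds unmethylated CpG and belongs to the SET1 histone methyltransferase complexes, read 8.82, 9.22 and 9.01 in parental and 8.21, 7.45 and 7.71 in resistant SJCRH30 cells. The groups stood apart, and the change was -1.22 ± 0.22 (limma adjusted p = 0.00212). In NCI-H520 it was lower by 1.96 ± 0.21, from 8.76, 8.59 and 8.57 to 6.54, 6.43 and 7.05. In Rh41 all 5 resistant arrays (7.37, 7.35, 7.60, 7.60 and 7.38) were also below the parental 7.73, 7.86 and 7.65, but the change of -0.29 ± 0.11 did not pass (adjusted p = 0.0821).

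MBD2, a methyl-CpG-binding repressor, read 11.52, 11.25 and 11.21 in parental and 10.62, 10.65 and 10.52 in resistant SJCRH30 cells, and fell by 0.73 ± 0.19 on the log2 scale (limma adjusted p = 0.0153). Without the first parental array the adjusted p was 0.0631 and without the last resistant array 0.0511, so this call rests on them. In NCI-H520 its level went from 12.59, 12.47 and 12.65 to 10.40, 10.32 and 10.76, a change of -2.08 ± 0.19. MBD1, its relative next to CXXC1, was lower by 1.26 ± 0.28 in NCI-H520 and changed by -0.30 ± 0.19 in SJCRH30 and -0.33 ± 0.12 in Rh41, neither of which passed (adjusted p = 0.335 and 0.0805). In SJCRH30 all resistant MBD1 arrays were nonetheless below all parental ones.

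ZNF532 was lower by 2.82 ± 0.21 in NCI-H520, from 9.94, 9.57 and 9.93 to 6.69, 7.06 and 7.22. In SJCRH30 it went from 9.01, 9.05 and 8.97 to 8.57, 8.39 and 7.92, and fell by 0.72 ± 0.21 (limma adjusted p = 0.028). The SJCRH30 call was lost on leaving out any array but the first resistant one, with adjusted p from 0.0514 to 0.116, and after joint normalization of all arrays (adjusted p = 0.0563). ZNF532 lay under 5 in both Rh41 groups. TCF4, an E-box transcription factor, was among the brightest members in NCI-H520 at 15.95, 15.83 and 16.13, and resistant arrays read 14.13, 14.33 and 14.52, lower by 1.64 ± 0.19. In Rh41 TCF4 went from 9.38, 9.22 and 9.12 to 8.58, 8.76, 8.69, 8.89 and 8.79, without overlap (-0.50 ± 0.11, adjusted p = 0.00669, under 1.5-fold). ONECUT2, ZBTB7C and RAX, a cut-homeobox factor, a zinc finger repressor and a retinal homeobox factor, were not called in any line.

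MEX3C, an RNA-binding ubiquitin ligase, had the largest fall of any member in SJCRH30. Its arrays read 9.59, 9.18 and 9.25 in parental and 7.45, 8.26 and 7.76 in resistant SJCRH30 cells, a change of -1.51 ± 0.23 (limma adjusted p = 0.000602). In NCI-H520 it was lower by 1.48 ± 0.18, from 8.49, 8.40 and 8.42 to 6.85, 6.92 and 7.09. All resistant Rh41 arrays, at 7.02 to 7.12, were below the parental 7.16 to 7.24 as well, by only 0.13 ± 0.08 (adjusted p = 0.333). LINC01630, an RNA of the same interval that is not in the list, fell by 2.48 ± 0.23 in SJCRH30 (adjusted p = 1.28e-05) and by 0.59 ± 0.11 in Rh41 (adjusted p = 0.00275), and changed by 0.10 ± 0.30 in NCI-H520.

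NARS1, the cytosolic asparaginyl-tRNA synthetase, went in opposite directions. It was lower by 1.95 ± 0.18 in NCI-H520, from 13.71, 13.48 and 13.52 to 11.78, 11.54 and 11.55. In SJCRH30 it rose by 0.87 ± 0.21 (limma adjusted p = 0.00991), from 11.60, 11.997 and 11.43 to 12.42, 12.71 and 12.50. In Rh41 the resistant arrays, at 8.36 to 8.67, were all above the parental 7.96 to 8.15, but the change of 0.44 ± 0.10 (adjusted p = 0.0102) was under 1.5-fold. ELAC1, a tRNA-processing nuclease beside SMAD4, was lower by 1.28 ± 0.20 in NCI-H520 and was not called in SJCRH30 (-0.22 ± 0.25) or Rh41 (0.13 ± 0.11).

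Among the 5 metabolic and redox genes, 4 were lower past the thresholds in NCI-H520, and all 5 changes were negative. That contrast chose the region, and 57.4% of all 47 members (9.9% of all clusters) were lower in it, so the count is a description. In SJCRH30, 2 of the 5 fell (9.28% of all clusters). In Rh41 none was called (8.78% of all clusters in either direction), and 4 of the 5 changes were positive. ACAA2, a mitochondrial thiolase of fatty acid oxidation, read 12.99, 13.24 and 13.03 in parental and 10.23, 10.04 and 9.91 in resistant NCI-H520 cells, a difference of -3.03 ± 0.19. In SJCRH30 it fell by 0.64 ± 0.19 (limma adjusted p = 0.0322), from 12.27, 12.68 and 12.40 to 11.74, 11.89 and 11.81, without overlap. That call was lost on leaving out any 1 array except the first parental one, with adjusted p from 0.0586 to 0.131, and under joint normalization (adjusted p = 0.0557). LIPG, endothelial lipase, fell by 0.80 ± 0.23 in SJCRH30 (adjusted p = 0.0303), from 6.59, 6.41 and 6.88 to 5.42, 6.26 and 5.80, and lay under 5 in the other lines. Its call was lost without the first or last parental or the first or last resistant array (adjusted p from 0.0742 to 0.119) and under joint normalization (0.0632).

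ME2, the mitochondrial NAD-dependent malic enzyme close to SMAD4, was lower by 2.26 ± 0.18 in NCI-H520, from 10.67, 10.88 and 10.69 to 8.55, 8.54 and 8.35. In SJCRH30 the resistant arrays (10.29, 10.33 and 10.59) lay below the parental ones (10.88, 10.98 and 10.80), but the change of -0.49 ± 0.19 did not pass (limma adjusted p = 0.0916). TXNL1, a thioredoxin-like protein of the proteasome, was lower by 2.13 ± 0.22 in NCI-H520. In Rh41 all its resistant arrays lay above the parental ones, by 0.30 ± 0.09 (adjusted p = 0.0396), under 1.5-fold. FECH, which inserts iron into heme, was lower by 1.49 ± 0.19 in NCI-H520 and positive in SJCRH30 (0.58 ± 0.25, adjusted p = 0.133) and Rh41 (0.25 ± 0.11, adjusted p = 0.134).

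The secretory and membrane genes held 1 of the 2 members that were higher in NCI-H520 and several of the falls. MYO5B, a myosin motor of recycling endosomes, was higher by 0.84 ± 0.19 in NCI-H520, from 8.03, 8.17 and 7.96 to 9.12, 8.84 and 8.73, although ACAA2 beside it was lower. In SJCRH30 it fell by 1.02 ± 0.19 (limma adjusted p = 0.00204), from 10.84, 10.59 and 10.52 to 9.73, 9.54 and 9.60. In Rh41 it rose by 1.55 ± 0.12 (adjusted p = 9.15e-06), from 6.78, 6.57 and 6.53 to 8.21, 7.98, 8.01, 8.24 and 8.41. The groups stood apart in every line. C18orf32 fell in SJCRH30 by 1.05 ± 0.23 (adjusted p = 0.00617), from 8.90, 9.44 and 9.16 to 8.30, 7.71 and 8.35. In NCI-H520 it was lower by 0.85 ± 0.27 with overlapping arrays (9.81, 10.62 and 10.09 against 8.96, 9.84 and 9.16), and this value passed or not with the arrays kept. Its readthrough transcript with RPL17 shares its sequence and has its own cluster, which fell by 0.98 in SJCRH30 (adjusted p = 0.0052), so signal of either cannot be given to one of them alone. In Rh41 the 2 clusters differed in sign. C18orf32 changed by 0.31 there, while the 3 unlisted clusters of the interval, the readthrough among them, all had negative changes.

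SEC11C, a catalytic subunit of signal peptidase, rose by 0.98 ± 0.12 in Rh41 (limma adjusted p = 0.000177), from 4.37, 4.52 and 4.81 to 5.63, 5.62, 5.55, 5.57 and 5.38. The parental mean was under 5. In NCI-H520 it was lower by 1.23 ± 0.25 and in SJCRH30 it changed by 0.48 ± 0.21 (adjusted p = 0.134). ATP8B1, a phospholipid flippase, rose by 0.81 ± 0.11 in Rh41 (adjusted p = 0.00053), from 4.04, 3.58 and 3.76 to 4.61, 4.62, 4.51, 4.67 and 4.59, all at low signal. In NCI-H520, where it was bright at up to 12.43, the groups overlapped (-0.25 ± 0.20), and ATP8B1 was not called between NARS1 and NEDD4L, both lower.

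LMAN1, a cargo receptor between endoplasmic reticulum and Golgi, was lower by 2.17 ± 0.19 in NCI-H520, from 14.56, 14.60 and 14.36 to 12.35, 12.15 and 12.52. In SJCRH30 it was higher on every resistant array, at 13.59, 13.39 and 13.40 against 13.003, 12.89 and 12.79, by 0.57 ± 0.18 (limma adjusted p = 0.0461), under 1.5-fold. DYM, a Golgi protein, was lower by 1.91 ± 0.21 in NCI-H520 and lay below on every resistant SJCRH30 array without passing (-0.48 ± 0.18, adjusted p = 0.0841). IER3IP1, an endoplasmic reticulum protein, and WDR7, linked to vesicle acidification, were lower in NCI-H520 by 1.13 ± 0.21 and 0.87 ± 0.24 and were not called elsewhere. WDR7 did not pass when any 1 array except the second parental one was left out, with values of -0.68 to -0.88. RAB27B, CPLX4 and ST8SIA3, a vesicle GTPase, a complexin and a sialyltransferase, were not called in any line.

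POLI, a translesion DNA polymerase, was lower by 3.26 ± 0.24 in NCI-H520, from 9.58, 9.12 and 9.60 to 5.79, 6.19 and 6.55. In SJCRH30 its resistant arrays (7.04, 7.21 and 7.80) lay below the parental ones (7.85, 8.22 and 7.80), the closest pair by less than the second decimal shows, and the change of -0.60 ± 0.23 did not pass (limma adjusted p = 0.089). SKA1, a kinetochore protein that binds microtubules, fell by 0.86 ± 0.19 in SJCRH30 (adjusted p = 0.00643), from 8.52, 8.35 and 8.70 to 7.64, 7.59 and 7.77. In NCI-H520 it changed by -0.45 ± 0.19 and did not pass. The largest negative changes that did not pass there were STARD6 at -0.61, DCC at -0.55 and CFAP53 at -0.48. STARD6 and DCC lay under 5 in both groups and CFAP53 in 1 of them. The smallest negative changes past both thresholds were C18orf32 at -0.85 and WDR7 at -0.87.

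NEDD4L, a ubiquitin ligase that acts on ion channels and on activated SMAD2, rose in both rhabdomyosarcoma lines. In SJCRH30 it went from 6.59, 6.90 and 7.49 to 9.24, 8.47 and 8.30, a change of 1.68 ± 0.28 (limma adjusted p = 0.00112). In Rh41 it went from 4.73, 4.50 and 4.98 to 6.04, 6.17, 6.28, 6.08 and 5.80, a change of 1.34 ± 0.14 (adjusted p = 6.77e-05). No array of one group reached the other in either line, and the parental mean in Rh41 was under 5. In NCI-H520 it was lower by 1.36 ± 0.22, from 10.24, 10.30 and 10.12 to 8.87, 8.46 and 9.24.

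PMAIP1 encodes NOXA, a BH3-only promoter of apoptosis and a p53 target. It rose in SJCRH30 by 0.84 ± 0.23 (limma adjusted p = 0.0213), from 6.45, 5.88 and 5.59 to 6.72, 6.78 and 6.92, and in Rh41 by 0.66 ± 0.13 (adjusted p = 0.00488), from 6.17, 6.79 and 6.51 to 7.15, 7.28, 7.09, 7.09 and 7.16. The SJCRH30 call was lost without the second or last parental or the second or last resistant array (adjusted p from 0.0508 to 0.083). The Rh41 change was 0.51, under 1.5-fold, without the first parental array, and in 1 fit of all 6 groups its adjusted p was 0.0602. In NCI-H520 PMAIP1 was lower by 1.68 ± 0.31, from 6.44, 7.23 and 6.99 to 4.62, 5.16 and 5.84.

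ALPK2, an alpha-type kinase, was higher by 1.63 ± 0.20 in NCI-H520, from 7.11, 7.01 and 6.97 to 8.34, 8.89 and 8.74, with NEDD4L and MALT1, both lower, on either side. It rose by 1.76 ± 0.15 in Rh41 (limma adjusted p = 1.54e-05), from 4.36, 3.79 and 4.31 to 5.71, 5.88, 5.95, 6.15 and 5.84, with a parental mean under 5. In SJCRH30 the resistant arrays scattered at 5.84, 4.07 and 4.37 around a parental 5.62, 5.36 and 5.39, and the change of -0.70 ± 0.36 did not pass (adjusted p = 0.213). C18orf54 rose by 0.78 ± 0.18 in Rh41 (adjusted p = 0.00962), from 5.28, 4.88 and 5.77 to 5.99, 5.99, 6.28, 5.94 and 6.25, but by 0.57, under 1.5-fold, without the second parental array. In NCI-H520 it was lower by 1.17 ± 0.30, from 6.57, 6.02 and 6.88 to 5.70, 5.61 and 4.67, and did not pass without the first or last parental or the last resistant array (-1.13, -0.97 and -0.84).

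**Figure D3:**
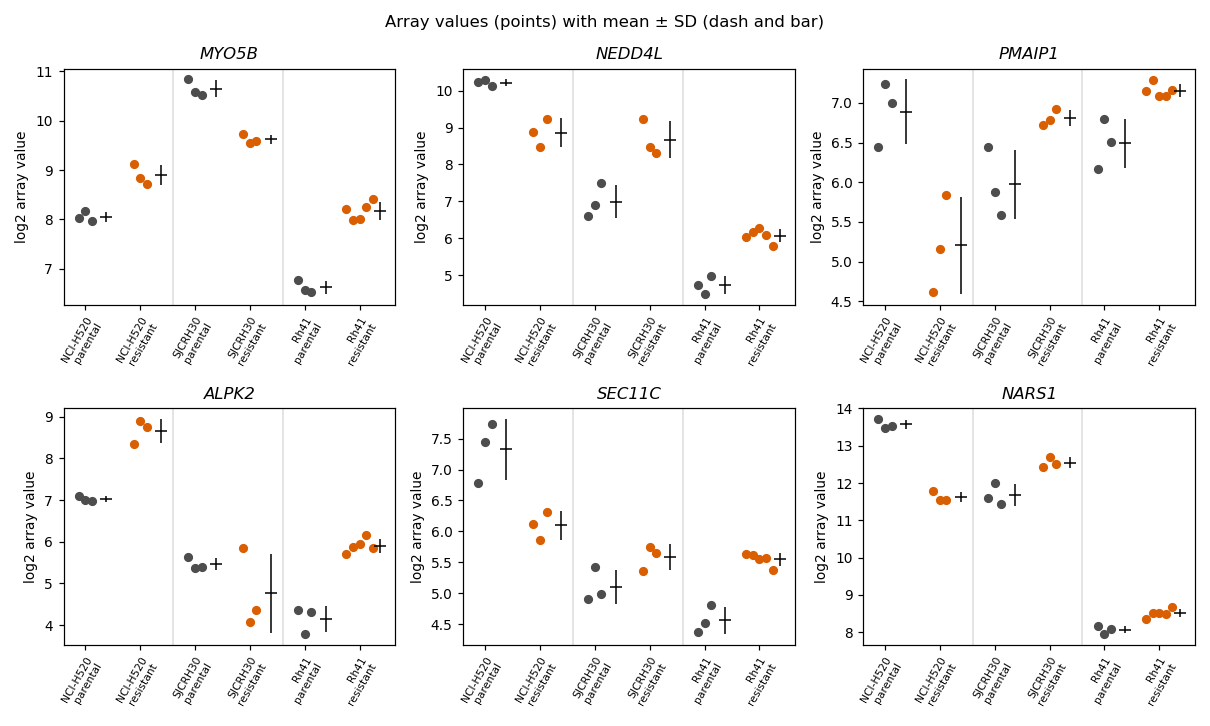
Log2 array values of MYO5B, NEDD4L, PMAIP1, ALPK2, SEC11C and NARS1 in the 6 groups (points: arrays, gray for parental and orange for resistant; dash and bar: mean ± SD). NEDD4L and PMAIP1 are higher in resistant SJCRH30 and Rh41 cells and lower in resistant NCI-H520 cells, and MYO5B is lower in resistant SJCRH30 cells alone.

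CCBE1, a secreted protein that promotes lymphatic growth, had the largest difference in NCI-H520, from 10.81, 10.30 and 10.36 to 6.15, 5.77 and 6.15, or -4.47 ± 0.21. It lay under 5 in both groups of the other lines. MALT1, the paracaspase of NF-kB signaling, was lower by 1.71 ± 0.19 in NCI-H520, from 13.59, 13.42 and 13.52 to 11.95, 11.88 and 11.57. In Rh41 every resistant MALT1 array, at 6.44 to 6.69, was above the parental 5.81 to 6.30, by 0.52 ± 0.12 (limma adjusted p = 0.0119), under 1.5-fold. The netrin receptor DCC, the atypical kinase MAPK4 and the peptide GRP were not called in any line, and the first 2 had means under 5 in every group. CFAP53, MRO, STARD6, DYNAP and CCDC68 were not called in any line either. Of the 47 members, 9 had a mean under 5 in all 3 lines and 30 a mean of 5 or more in all 3.

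The calls of the lines were set side by side. Of the 10 members that fell in SJCRH30, 7 were also lower past the thresholds in NCI-H520 (C18orf32, ACAA2, CXXC1, SMAD4, MEX3C, MBD2 and ZNF532), which is 70% of the former and 25.9% of the 27 in the latter. The 3 members that rose in SJCRH30 (NARS1, NEDD4L and PMAIP1) were all lower in NCI-H520. Of the 7 that rose in Rh41, 4 were lower in NCI-H520 and both MYO5B and ALPK2 were higher there. NEDD4L and PMAIP1 rose in both rhabdomyosarcoma lines, 2 of 3 in SJCRH30 and 2 of 7 in Rh41. Over all clusters, 16.2% of those that fell in SJCRH30 and 15.5% of those that rose there were lower in NCI-H520. Of all clusters that rose in Rh41, 14.5% were lower and 15.8% higher in NCI-H520, and 18.2% rose in SJCRH30. The members were chosen by their values in NCI-H520, where 57.4% of all 47 were lower, so its share is a description. The 70% is to be set beside a share of members and not beside the share over all clusters. None of the 11 members with a mean under 5 in NCI-H520 was called there, and 27 of the other 36 were lower. The 10 that fell in SJCRH30 all had a mean of 5 or more in that line, so 27 of 36 is the nearer figure, and no excess is read from the 70%.

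Whether the change differed between SJCRH30 and Rh41 was tested after all 20 arrays had been quantile-normalized together. The difference passed, with opposite signs, for 9 of 47 members, or 19.1%, which is near the 17.7% of all clusters. The largest were MYO5B at -3.25 ± 0.23 (limma adjusted p = 5.65e-10) and ALPK2 at -2.55 ± 0.38 (adjusted p = 2.71e-05), followed by C18orf32 at -1.35 ± 0.30 (adjusted p = 0.0018). All had a negative change in SJCRH30 and a positive one in Rh41. The test is of the difference and not of each side: ALPK2 was not called in SJCRH30, nor C18orf32 in Rh41. The readthrough cluster that shares sequence with C18orf32 had a negative change in Rh41, so the opposite sign rests on the C18orf32 cluster alone. On the deposited values 8 of the 9 passed, and TXNL1 did not (adjusted p = 0.105). SMAD4 and MEX3C differed as well, by -0.65 ± 0.21 (adjusted p = 0.0263) and -1.02 ± 0.21 (adjusted p = 0.000728), but with the same sign in both lines, where a size depends on the scale.

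**Figure D4:**
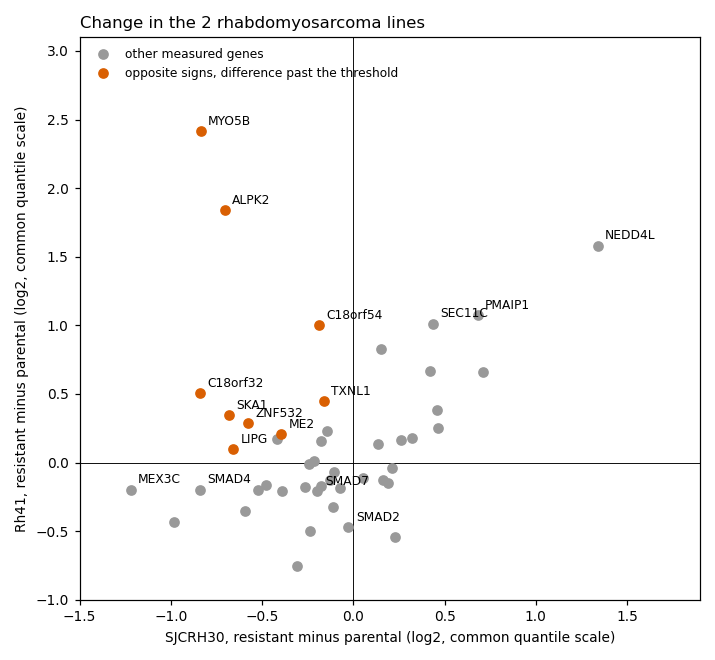
Log2 change (resistant minus parental) of the 47 genes in SJCRH30 (x axis) and Rh41 (y axis) after joint quantile normalization. The 9 orange genes, MYO5B and ALPK2 farthest out, have a negative change in SJCRH30 and a positive one in Rh41 with a difference past the threshold, and NEDD4L is high on both axes.

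In NCI-H520, genes beyond the interval were low too, as a description like the rest of that contrast. There, 22 of the 58 genes after PMAIP1 were lower past the thresholds and 1 was higher, with a median of -0.49. Among them were CCDC102B at -3.33 and DOK6 at -2.87, and the higher one was PHLPP1 at 0.84. Of the 79 long-arm genes before IER3IP1, 16 were lower and 4 higher, with a median of -0.12, and the last 1 before the interval, HDHD2, was at -1.32. The 63 short-arm genes had 5 lower and 8 higher and a median of 0.04. Chromosome 18 had the lowest median of all chromosomes in NCI-H520 among genes with a mean of 5 or more, at -0.46, where the highest was 0.16. These 162 genes of chromosome 18 included 36 members, which this contrast chose, so the rank is in part set by that choice. The rank without the members was not computed.

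In SJCRH30 the medians of the stretches on both sides were above 0. Of the 79 long-arm genes before IER3IP1, 13 rose and 2 fell, with a median of 0.13, and of the 58 genes after PMAIP1, 4 rose and 3 fell, with a median of 0.04. The short arm had 10 rises and 1 fall among 63 genes (median 0.16). ZNF521 rose most before the interval (1.29, limma adjusted p = 0.00222), and CDH19 fell most after it (-2.76, adjusted p = 3.35e-05). In Rh41 the medians of the short arm, the long arm before the interval and the long arm after it were 0.12, 0.03 and 0.04, with 7, 3 and 4 rises and 3, 5 and 0 falls. CCDC102B rose by 1.53 in Rh41 (adjusted p = 1.92e-05).

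**Figure D5:**
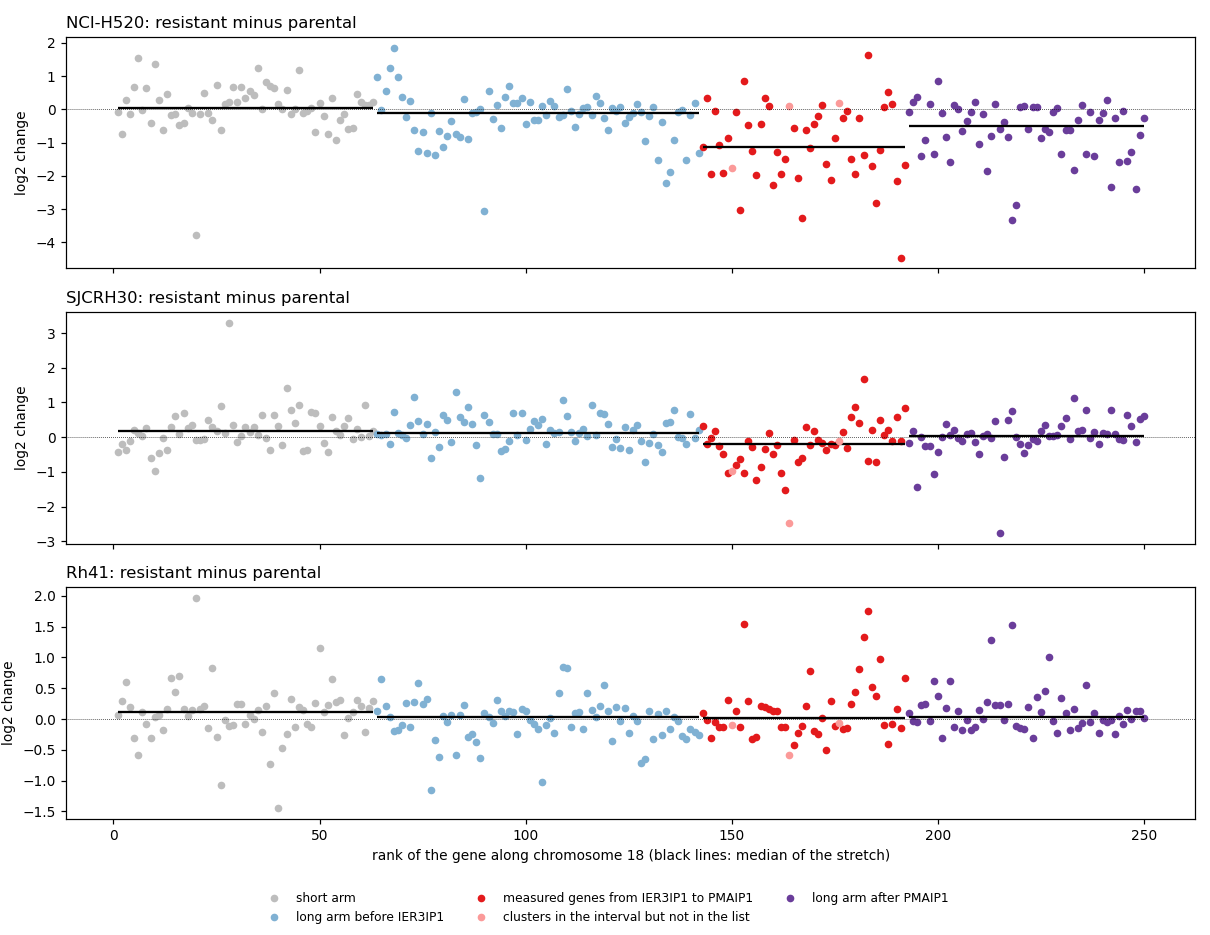
Log2 change (resistant minus parental) of all 250 measured genes of chromosome 18, by rank along the chromosome, in the 3 lines (black lines: median of each stretch). The 47 listed genes, in red, have a median of -1.13 in NCI-H520, where the genes after them are low too, of -0.20 in SJCRH30, where the medians of their flanks lie above 0, and of 0.01 in Rh41.

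The other genes of the TGF-beta pathway were read from a list of 45, of which 42 were measured. In SJCRH30, 10 fell and 8 rose (median -0.21), where 9.28% and 9.42% of all clusters did. Of the 13 measured targets, 4 fell, 1 rose and 8 were not called. PMEPA1, which the pathway induces and which inhibits the pathway in turn, rose by 0.84 ± 0.21 (limma adjusted p = 0.0136). ID1 fell by 1.94 ± 0.23 (limma adjusted p = 8.05e-05), ID3 by 1.51 ± 0.20 (adjusted p = 0.000255) and ID2 by 1.30 ± 0.29 (adjusted p = 0.00748), each an inhibitor of helix-loop-helix factors and a target of BMP signaling. Of the 10 receptors, 4 rose, with TGFBR1, the type I TGF-beta receptor, up by 1.51 ± 0.23 (adjusted p = 0.000672), and 2 fell. The latent TGF-beta binding protein LTBP1 rose by 1.56 ± 0.19 (adjusted p = 0.000102). In Rh41, 4 fell and 7 rose (median 0.02), where 3.08% and 5.69% of all clusters did, with falls of 1.37 ± 0.12 in ID3 (adjusted p = 1.9e-05) and 0.71 ± 0.19 in ID1 (adjusted p = 0.0251), while ID2 rose by 1.11 ± 0.21 (adjusted p = 0.00343). TGFBI, a matrix protein induced by TGF-beta, rose by 2.82 ± 0.14 in Rh41 (adjusted p = 4.16e-07) and ENG, a TGF-beta co-receptor, by 2.35 ± 0.13 (adjusted p = 9.84e-07). In NCI-H520, 15 were lower and 5 higher (median -0.18), where 9.9% and 10.1% of all clusters were, with BMP4, a ligand, at -5.02, TGFBI at -4.46, ID2 at -2.80, ID1 at -2.09 and TGFBR1 at 2.01. Counts in Rh41 depended on the scale: 10 fell after joint normalization.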

How the data were processed

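Biotin-labeled cDNA from total RNA was hybridized to Affymetrix human whole-transcript arrays, and the deposited values are log2 expression levels that the authors obtained by RMA with quantile normalization. The version of that software, the probe-level settings and the genome build are not given in the sources used here. Rh41 arrays had another distribution of values than those of the other lines, as separate normalization would give, so no test combined the lines on deposited values except as a named alternative. The tests covered the 17709 of 21448 transcript clusters with a single gene symbol and left out the other 3739. Gene names and order come from the platform annotation and RefSeq (GRCh38.p14), as do the promoter sequences. Resistant arrays were compared with parental ones in a separate limma model per line (version 3.58.1, R 4.3.3, moderated two-sided tests on the deposited log2 values as they stand). Adjusted p-values follow Benjamini and Hochberg, computed across the 17709 tested clusters. The script was tested on simulated data. A mean log2 value under 5 was treated as low signal, and such clusters were kept. Precision rests on the number of arrays per group, 3 to 5.

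The members, gene lists, rule for named genes and tests were chosen with earlier results of these data known. Named genes were SMAD2, SMAD4 and SMAD7, every member called in SJCRH30 or Rh41, the members lower or higher past the thresholds in NCI-H520, and the leading called genes of the TGF-beta list and of each stretch of chromosome 18. Other members, ID2, PMEPA1, LINC01630 and HDHD2 were named after their values were seen. Alternatives were leaving out each array, a replicate block, joint quantile normalization, centering, a signal filter, other thresholds, eBayes with trend and robust, and 1 fit of all groups. Plots used matplotlib 3.10.9 under Python 3.11.15.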

Additional observations from a re-analysis of the deposited data

Results flagged for a closer look

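On the common quantile scale, 9 members had a negative change in SJCRH30 and a positive one in Rh41 with a tested difference: C18orf32 (-1.35), LIPG (-0.76), MYO5B (-3.25), SKA1 (-1.03), ME2 (-0.61), C18orf54 (-1.19), TXNL1 (-0.61), ALPK2 (-2.55) and ZNF532 (-0.86). LIPG and ZNF532 lay under 5 in Rh41. The readthrough cluster that shares sequence with C18orf32 had a negative change in Rh41. Their share was near the 17.7% of all clusters.

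The first resistant Rh41 array read 2.93 for ZNF532, far from the nearest other resistant array at 3.20 relative to the spread of the group. It was the only such value among 47 groups of 5 arrays examined, and chance marks about 1 in 20.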

How the results depend on the processing

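No called gene changed sign under any alternative. Leaving out each array in turn, the member median lay between -1.15 and -0.97 for NCI-H520, between -0.24 and -0.14 for SJCRH30 and between 0.0080 and 0.084 for Rh41. Lower calls then numbered 24 to 26, 7 to 9 and 0, and higher calls 2, 2 to 3 and 6 to 8. Joint quantile normalization gave a median of -0.91 in NCI-H520, 1 fall in Rh41 and 10 falls in the Rh41 TGF-beta list. With only clusters of mean 5 or more in at least 1 group the medians were -1.42, -0.27 and 0.10, those of the long arm before IER3IP1 were -0.28, 0.35 and -0.019 (in Rh41 0.029 without this filter), and those after PMAIP1 were -1.03 in NCI-H520 and 0.14 in Rh41. Past 2-fold, 1 member was higher in NCI-H520, 5 fell and 1 rose in SJCRH30 and 3 rose in Rh41. With the adjusted p alone, 2 fell and 11 rose in Rh41. Causes were not tested beyond the stricter or looser thresholds themselves. Precision is limited by 3 to 5 arrays per group and, under 5, by low signal.

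Deviations of same-numbered parental and resistant arrays correlated at 0.08, 0.11 and 0.04 in NCI-H520, 0.12, -0.015 and 0.02 in SJCRH30 and -0.04, -0.18 and 0.28 in Rh41. In no line did every pair exceed 0.1, so the pairing rests on the number alone, although in NCI-H520 each parental array correlated best with the resistant array of its own number, a hint from the data and not from the design. A replicate block left 27, 10 and 1 lower calls and a Rh41 median of 0.072, and no called member was lost.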
